A study of Mus musculus with 12 samples.

Results

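The comparison described here set YFP+ effector memory CD4+ T cells (TEM) against YFP- TEM cells, with 3 RNA libraries on each side out of the 12 libraries of the series; the members were the columns labelled as effector or memory cells in the table of normalized counts, and every gene of that table entered the fit. The cells came from the spleens of unimmunised Gr/fr mice on a C57BL/6 background, and TEM cells were sorted by surface markers, CD44hi among them. All groups, the YFP- cells included, carried both reporter alleles: the Gr allele, in which iCre and BFP are read from the endogenous Csf2 gene, and Rosa26eYFP, in which Cre removes a stop cassette ahead of YFP. YFP therefore marked cells that transcribed Csf2 at the time or had done so earlier, and the descendants of such cells. A cell in which recombination did not occur counts as YFP-. The labels do not say whether replicates were separate mice; the study's methods give 3 mice, and put CD4+ T cell sorts in general in mice of 2 to 3 months, with no age or sex given for the RNA sort itself. The description of that sort names no CD25 gate, so regulatory T cells are not described as removed from either group.

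GM-CSF, the product of Csf2, is a cytokine that acts on myeloid cells and is released by activated T helper cells and by innate lymphocytes. Among CD4+ cells, invariant natural killer T (NKT) cells carry a semi-invariant receptor made from the Trav11 and Traj18 segments, recognise lipids bound to CD1d, depend on the transcription factor PLZF (Zbtb16) and display receptors otherwise typical of NK cells. MHC class II molecules, by contrast, present peptides to CD4+ T cells and belong to dendritic cells, B cells and macrophages; mouse T cells transcribe them little.

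The sequences of the NKT receptor segments show what a read on them can and cannot tell apart. Trav11 and Trav11d were identical over 342 bases, and Trav11n matched Trav11 at 335 of 343 positions, so reads on this group could be split between copies and its members are best read together. The last 120 bases of Trav11 and Trav11n and the whole of Traj18 are shown as the genome (GRCm38, plus strand, chromosome 14) has them, with capitals in Trav11n where it differs from Trav11.
Trav11 chr14:53519740-53519859: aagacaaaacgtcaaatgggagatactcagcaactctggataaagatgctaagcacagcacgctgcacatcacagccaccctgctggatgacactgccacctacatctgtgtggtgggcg
Trav11n chr14:53135559-53135678: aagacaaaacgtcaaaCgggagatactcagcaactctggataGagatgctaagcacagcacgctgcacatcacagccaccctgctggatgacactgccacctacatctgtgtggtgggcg
Traj18 chr14:54200777-54200842: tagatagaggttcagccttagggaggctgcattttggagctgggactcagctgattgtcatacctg

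The TEM libraries held between 41438995 and 57822269 reads on genes, and between 16567 and 16927 genes had a read. Values are normalized counts: reads divided by a size factor for each library, without correction for gene length, so levels are compared between libraries and not between genes. limma was fitted to log2 values of the 15587 genes with enough reads, and a gene that had an adjusted p (Benjamini-Hochberg) no higher than 0.05 passed the test, or was called. p-values measure only the spread between libraries within groups. That spread was pooled over all 12 libraries, so each SE and p-value of a TEM comparison also carries the spread between naive libraries. It can be wide for genes with few naive reads, as for Ccr2, at 33.6 ± 33.1 (mean and SD) in naive YFP+ cells. A gene's failure to pass therefore need not come from spread between TEM libraries. Cd4, the co-receptor used for sorting, stood at 61493, 67471 and 59783 in YFP- libraries and at 59179, 67141 and 54143 in YFP+ libraries, and these ranges overlapped. Csf2 stood at 2.46, 0.741 and 2.04 normalized counts in the YFP- libraries, a few reads in each, and at 139, 55.9 and 152 in the YFP+ libraries. The ratio was 69.1, with a counting interval of 31.4 to 190 (exact, 95%), which covers counting error only and not the spread between libraries. Gt(ROSA)26Sor, the non-coding transcript of the locus that carries YFP, was higher in YFP+ cells, at 358, 413 and 347 against 105, 170 and 135 (log2 fold change 1.46 ± 0.21 SE, limma adjusted p = 0.001).

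Of the tested genes, 359 (2.30%) were higher and 728 (4.67%) were lower in YFP+ TEM cells. With the replicate number as a block the numbers were 814 higher and 1055 lower, and with quantile normalization 686 and 806. With only the 6 TEM libraries in the fit they were 445 and 946, of which 303 and 666 were shared with the main fit. The median log2 fold change was 1.19 over the higher genes and -2.64 over the lower ones, against -0.01 over all genes tested. Fold changes past 4 on the log2 scale were found for 31 higher and 92 lower genes. When each of the 6 TEM libraries was left out in turn, 180 of the higher and 406 of the lower genes passed in all 6 fits; without YFP- replicate 3 the numbers fell to 224 higher and 414 lower, and without YFP+ replicate 1 or YFP+ replicate 3 to 212 and 202 higher.

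**Figure D1:**
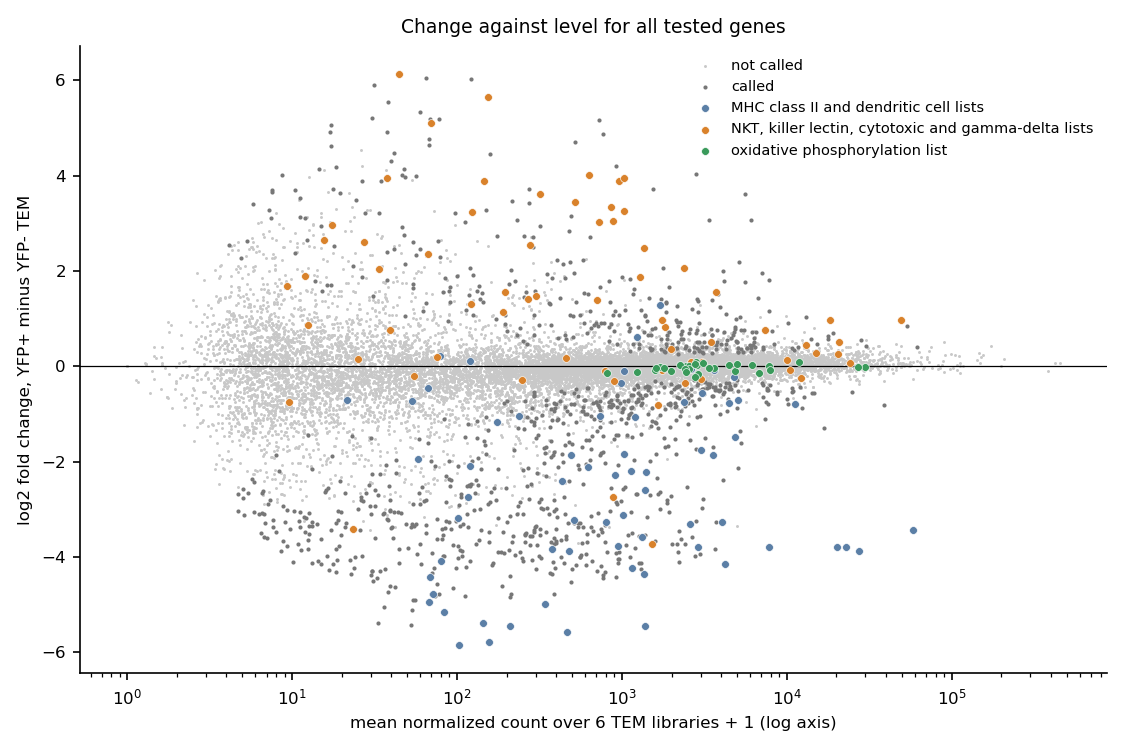
Each point is 1 of the 15587 tested genes, with its mean normalized count over the 6 TEM libraries plus 1 on a log axis and its log2 fold change (YFP+ minus YFP-) on the other. The blue points (MHC class II and dendritic cell lists) lie mostly between -2 and -6, the orange points (NKT, killer lectin, cytotoxic and gamma-delta lists) mostly above 0, and the green points (oxidative phosphorylation) along the zero line.

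NKT cell genes were the list with the largest share of higher genes. Of 15 tested members 8 were higher and none lower, with a median log2 fold change of 0.96. All 8 passed in every one of the 6 fits with a library left out. Trav11 and Trav11d, identical over 342 bases, were both counted among the 8. The lead over the list of killer lectin-like receptors (10 of 20 higher) rests on counting both. In sorted bulk cells, fewer cells of a type and less RNA per cell cannot be told apart. Zbtb16, the transcription factor PLZF, stood at 260, 108 and 198 in YFP- libraries and at 2655, 884 and 2088 in YFP+ libraries (log2 fold change 3.25 ± 0.66 SE, limma adjusted p = 0.0085). The lowest YFP+ library, replicate 2, was still above every YFP- library, and replicate 2 was also the lowest YFP- library. Klrb1c, which encodes the NK1.1 antigen, rose from 160, 153 and 149 to 1403, 870 and 1640 (3.03 ± 0.53, adjusted p = 0.0037). Cd160, a receptor for HVEM on innate-like lymphocytes, rose from 333, 391 and 466 to 2421, 1431 and 3102 (2.49 ± 0.31, adjusted p = 4.7e-04).
For each of these 3 genes the YFP+ libraries lay above all YFP- libraries with replicate 2 the lowest among them. Such lack of overlap held for 1086 of all 1087 called genes, so it adds little to a call. Il2rb, the beta chain of the IL-2 and IL-15 receptors, had among the highest normalized counts of the list, without correction for gene length. It stood at 37292, 34249 and 28515 against 84391, 53436 and 59662 (0.96 ± 0.16, adjusted p = 0.0027). Id2, a transcriptional regulator needed by innate lymphocytes, rose by the same amount, from 12916, 12230 and 11764 to 27568, 18185 and 27353 (0.96 ± 0.15, adjusted p = 0.0015). Il18r1, a chain of the IL-18 receptor, missed the threshold with 5864, 4619 and 5786 against 10077, 7036 and 10955 (0.77 ± 0.22, adjusted p = 0.052; 0.031 with the replicate block).

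The NKT receptor segments moved in the same libraries. Trav11d stood at 135, 89.7 and 127 in YFP- cells and at 2437, 1039 and 2329 in YFP+ cells (3.96 ± 0.37, limma adjusted p = 1.1e-04). Trav11 gave 125, 88.9 and 126 against 2303, 937 and 2185 (3.89 ± 0.40), and Trav11n averaged 25.01 against 273. Among 113 alpha V segments tested, these 3 were higher, none was lower, and the median was -0.16; with the replicate block 3 were higher and 5 lower, DESeq2 called 3 and 7, edgeR 3 and 0, and 6 and 13 passed before adjustment. Taken as a share of all reads on alpha V segments, which removes the level of the receptor transcript itself, the Trav11 group made up 1.09%, 0.789% and 1.11% in the YFP- libraries. In the YFP+ libraries the shares were 17.2%, 8.55% and 17.3%. The 95% Wilson intervals of these 6 shares, which cover counting error only, ran from 0.702% to 1.25% in YFP- and from 8.20% to 17.7% in YFP+ cells. The 6 naive libraries lay between 0.460% and 0.703%. Of the 51 alpha J segments tested, Traj18 was the one that passed, with 68.9, 62.2 and 72.3 against 206, 129 and 180 (1.30 ± 0.26, adjusted p = 0.0075). Its share of alpha J reads was 2.06%, 2.60% and 2.50% in YFP- and 6.60%, 4.45% and 7.31% in YFP+ cells. Trbv13-2, one of the beta segments used by NKT receptors, made up 13.6%, 12.7% and 14.04% of beta V reads in YFP- and 18.6%, 13.1% and 17.2% in YFP+ cells, so the groups overlapped at YFP+ replicate 2. In each of the 3 shares YFP+ replicate 2 was the lowest YFP+ library.

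**Figure D2:**
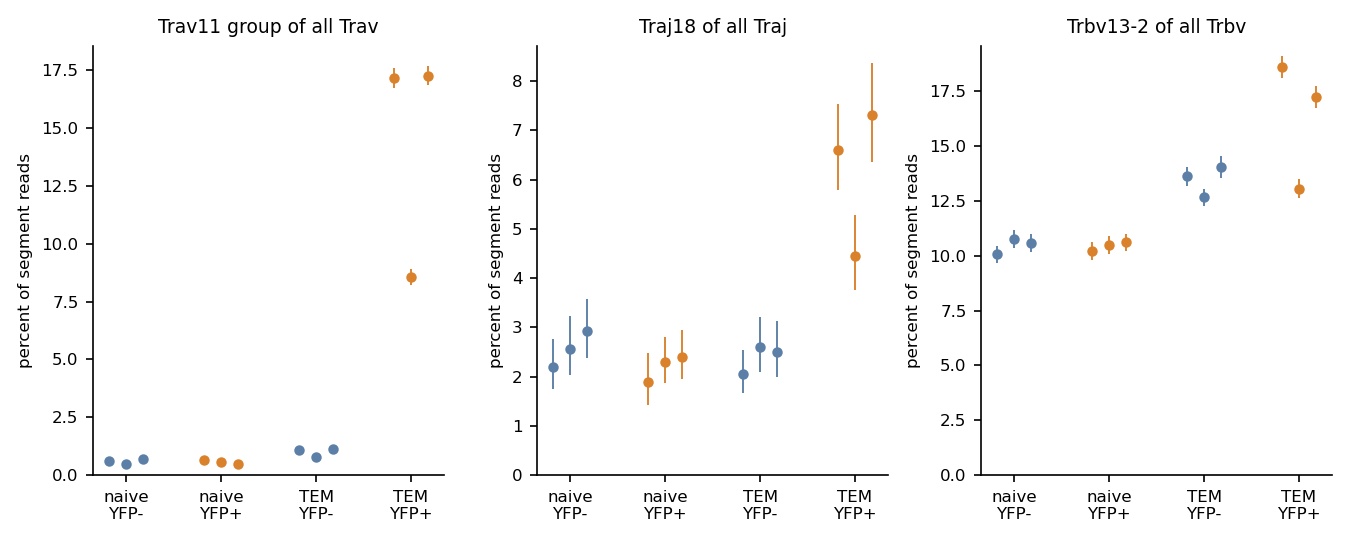
Percent of T cell receptor V or J segment reads taken by the NKT segments in each of the 12 libraries, with 95% Wilson intervals as bars (counting error only). The Trav11 group reaches 8.55% to 17.3% in YFP+ TEM libraries and stays at 1.11% or less in the other 9, Traj18 is also highest in the YFP+ TEM libraries, and Trbv13-2 overlaps between YFP+ and YFP- TEM cells.

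Killer lectin-like receptors, which NK cells and innate-like T cells display, rose in part. Of 20 tested members of the list with its adaptors, 10 were higher and 3 lower, and 7 and 2 of these passed with each library left out. The 3 lower members were the adaptors Tyrobp and Fcer1g and the receptor Klri1, which fell from 57.4, 29.6 and 38.7 to 4.04, 2.07 and 2.85 (-3.41 ± 0.66, limma adjusted p = 0.0066). The NKG2 genes gave the largest folds. Klrc1, the inhibitory NKG2A chain, stood at 4.92, 5.19 and 4.07 in YFP- cells and at 443, 210 and 247 in YFP+ cells (5.64 ± 0.69, limma adjusted p = 4.3e-04). Klrc2, the activating NKG2C chain, gave 4.92, 2.22 and 2.04 against 165, 107 and 128 (5.09 ± 0.50, adjusted p = 1.5e-04). Klrc3 had a single read over the YFP- libraries and stood at 58.6, 97.3 and 106 in YFP+ cells. Klrc2 and Klrc3 share a run of 209 identical bases and Klrc1 and Klrc2 one of 202, so reads in these runs could fall to either gene. Klrd1, the CD94 partner of the NKG2 chains, rose less, from 164, 126 and 149 to 355, 404 and 406 (1.41 ± 0.19, adjusted p = 6.7e-04). Klrk1, the activating receptor NKG2D, rose from 175, 151 and 135 to 1727, 1403 and 1564 (3.34 ± 0.51, adjusted p = 0.0016).
Both adaptors, which couple activating receptors of NK cells to kinases, were among the lower genes. Tyrobp, which encodes DAP12, fell from 2658, 2010 and 3786 to 277, 115 and 273 (-3.72 ± 0.63, adjusted p = 0.0028). Fcer1g, the Fc receptor gamma chain, also fell, from 1458, 1125 and 1973 to 304, 133 and 268 (-2.74 ± 0.67, adjusted p = 0.025), but did not pass without replicates 1 or 3 of the YFP- side or replicates 2 or 3 of the YFP+ side (adjusted p up to 0.12). Klra17, a Ly49 family member listed with plasmacytoid dendritic cell genes, fell from 725, 442 and 815 to 26.3, 6.21 and 41.8, whereas Klra1 went from 6.56, 7.41 and 6.11 to 44.5, 40.4 and 52.3 (2.60 ± 0.61, adjusted p = 0.021). The call of Klra1 was lost when any library other than YFP+ replicate 2 was left out (adjusted p up to 0.083).

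Cytotoxic and death ligand genes were higher in 8 of 19 members and lower in none, with a median of 0.45, and 4 of the 8 passed in all 6 fits with a library left out. Prf1, the pore-forming protein perforin, rose from 169, 185 and 175 to 2110, 834 and 1801 (3.05 ± 0.29, limma adjusted p = 1.3e-04). Fasl, the ligand of the death receptor Fas, rose from 598, 491 and 494 to 2828, 1220 and 2036 (1.86 ± 0.25, adjusted p = 7.2e-04). Ctsw, a cathepsin of cytotoxic lymphocytes, rose from 1074, 1126 and 613 to 4404, 3630 and 3462 (2.07 ± 0.27, adjusted p = 6.0e-04). Rab27a, a GTPase of granule release, rose by 0.45 ± 0.08 (adjusted p = 0.0032), which is the smallest change among these 4. Of 5 granzymes tested none passed by limma, by edgeR, by DESeq2 or at an unadjusted p no higher than 0.05, and Gzmb overlapped with 468, 499 and 329 against 504, 419 and 520 (0.17 ± 0.65, adjusted p = 0.96).

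Genes of the T cell receptor gamma chain rose, and none of the delta chain passed. Of 20 gamma and delta segments tested, 10 were higher and none lower, all 10 of them gamma, and 8 passed with each library left out. Trgc2 stood at 86.1, 60.03 and 61.1 against 1670, 670 and 1260 (4.02 ± 0.51, limma adjusted p = 5.2e-04). Trgc1 stood at 98.4, 74.1 and 78.4 against 1113, 632 and 1100 (3.45 ± 0.55, adjusted p = 0.002), and Trgv1 at 26.2, 15.6 and 24.4 against 295, 135 and 234 (3.23 ± 0.55, adjusted p = 0.003). The sequences of the gamma constant genes were not compared, so the split of reads between them is uncertain. Trdc, the delta constant gene, stood at 214, 248 and 358 in YFP- and at 216, 258 and 189 in YFP+ cells (-0.28 ± 0.19, adjusted p = 0.57), and its reads cannot be told apart from those of the overlapping alpha locus. Sox13, a transcription factor of gamma-delta T cells, was at 0 in all 3 YFP- libraries and at 4.04, 1.04 and 12.4 in YFP+ libraries, too low to be tested. On the list of gamma-delta T cell genes 6 of 14 were higher and none lower. Summed over that list, the YFP- libraries held 12720 to 17551 and the YFP+ libraries 18976 to 28918 normalized counts. The sum did not follow the gamma genes. YFP+ replicate 2 had the highest sum, 28918, but the lowest YFP+ values of Trgc2 (670), Trgc1 (632) and Trgv1 (135).
The values of other lymphocytes beside these results were as follows. Ncr1, the NK cell receptor NKp46, was at 0 in all YFP- libraries and at 35.4, 6.21 and 56.1 in YFP+ libraries, at least 10.7-fold higher against a floor of 3 reads per library. Eomes, a transcription factor of NK cells, did not pass, with 494, 634 and 453 against 375, 460 and 336 (-0.43, adjusted p = 0.19). Of the 13 tested NK cell genes 5 were higher and 3 lower. The summed level of that list overlapped, at 5494 to 8753 in YFP- and 3210 to 5883 in YFP+ libraries. Such sums are led by the members with the highest counts. Cd8a, a co-receptor chain of cytotoxic T cells, fell from 470, 160 and 483 to 58.6, 13.5 and 61.8 (-3.13, adjusted p = 0.0093), though not without YFP- replicate 3 (adjusted p = 0.055), and Cd8b1 fell by 1.63 (adjusted p = 0.0013). Cd3e, a signalling chain of the receptor complex, overlapped at 34906, 43014 and 32339 against 44656, 47263 and 39632. The part of other lymphocytes in the results above was not tested.

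**Figure D3:**
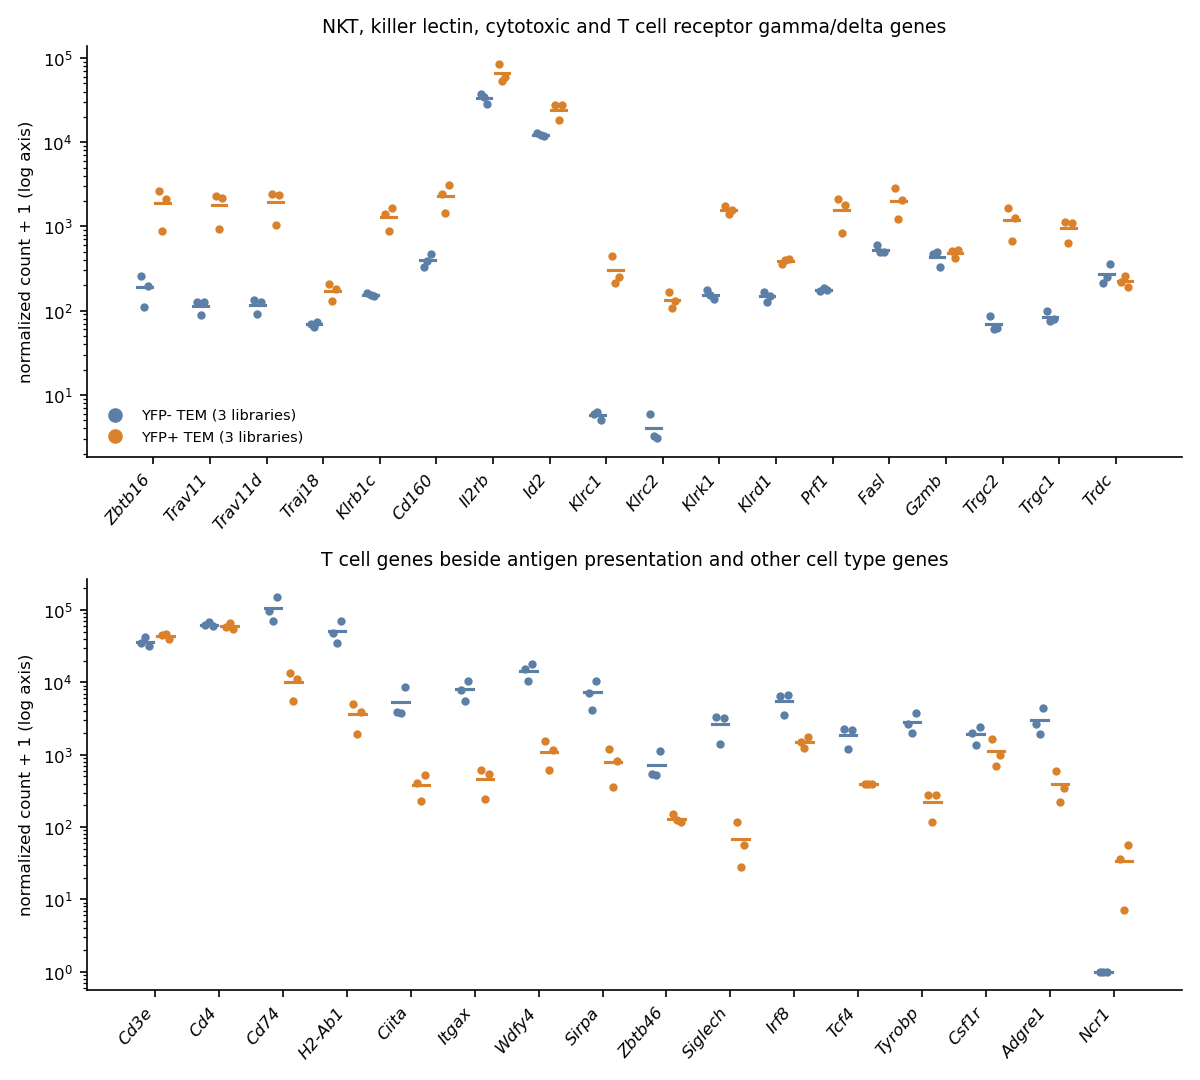
Normalized counts plus 1 on a log axis for 34 genes in each of the 3 YFP- (blue) and 3 YFP+ (orange) TEM libraries, with a bar at each group mean. In the upper panel all genes but Gzmb and Trdc separate the groups, with YFP+ above. In the lower panel Cd3e and Cd4 overlap, the MHC class II and dendritic cell genes lie lower in YFP+ libraries, Csf1r overlaps, and Ncr1 lies above YFP- in the YFP+ libraries.

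MHC class II genes had the largest share of lower genes of the 45 lists. Of 17 tested members 14 were lower and none higher, with a median of -3.26, and 13 passed in all 6 fits with a library left out. Cd74, the invariant chain that guards the peptide groove, stood at 98157, 70981 and 149677 in YFP- cells and at 13532, 5477 and 11136 in YFP+ cells (-3.43 ± 0.42, limma adjusted p = 4.5e-04). H2-Ab1, the I-A beta chain, fell from 47727, 35321 and 71386 to 5089, 1938 and 3926 (-3.87 ± 0.46, adjusted p = 3.6e-04). Ciita, the coactivator on which class II transcription depends, fell from 3943, 3783 and 8560 to 400, 227 and 521 (-3.80 ± 0.48, adjusted p = 5.2e-04).
For these 3 genes the YFP+ libraries lay below all YFP- libraries, and groups were likewise apart for 1086 of all 1087 called genes. Replicate 2 was lowest on the YFP+ side and replicate 3 highest on the YFP- side. Among the genes that load and edit peptides the falls varied. The beta chains H2-DMb1 (-3.58 ± 0.61) and H2-DMb2 (-3.31 ± 0.41) stood near Cd74, and H2-DMa (-1.75 ± 0.15), H2-Oa (-2.23 ± 0.28) and H2-Ob (-1.85 ± 0.20) had smaller log2 fold changes. Ctss, the protease that trims the invariant chain, fell by 0.79 ± 0.11, from 13849, 12783 and 15810 to 8709, 8317 and 7460. Marchf1, a ligase that removes class II from the cell surface, fell from 975, 1172 and 2210 to 146, 88.0 and 219. Summed over the list, the YFP- libraries held 196949 to 390237 normalized counts and the YFP+ libraries 26575 to 43576, while the 6 naive libraries held 16887 to 25822.

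The promoters of these genes are known for a shared array of boxes bound upstream of the start, and 7 of the 9 lower members with a promoter entry hold the letters of its Y box. Stretches of 90 bases are shown for 4 of them because they include the member with a smaller fall, H2-Ob, beside 3 with larger falls, from RefSeq on GRCm38.p6, with capitals marking the core of the Y box (TGATTGG) and of the X2 box (ATGATGC).
H2-Eb1 chr17:34305746-34305835 plus strand: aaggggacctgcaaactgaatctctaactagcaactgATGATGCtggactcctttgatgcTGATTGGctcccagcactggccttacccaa
H2-Aa chr17:34287844-34287933 minus strand: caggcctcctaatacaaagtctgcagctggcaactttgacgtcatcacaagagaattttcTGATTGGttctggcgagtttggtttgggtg
H2-DMb1 chr17:34153068-34153157 plus strand: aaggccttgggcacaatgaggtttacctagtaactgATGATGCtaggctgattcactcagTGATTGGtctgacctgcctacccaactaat
H2-Ob chr17:34238786-34238875 plus strand: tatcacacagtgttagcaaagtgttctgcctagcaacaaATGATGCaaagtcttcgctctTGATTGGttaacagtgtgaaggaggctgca
The Y box core begins 61, 50, 63 and 59 bases before the start of H2-Eb1, H2-Aa, H2-DMb1 and H2-Ob. On either strand (TGATTGG or CCAATCA) it occurred in 7 of the 10 list members with a promoter entry of 300 bases, and in 7.82% of all 32851 promoters. The X2 core (ATGATGC or GCATCAT) occurred in 4 of the 10 and in 2.46% of all, and both together in 4 of the 10 and in 0.174%. List members were counted by gene and all promoters by entry, so the shares are not in the same unit. Of the 17 list members 10 had an entry, and H2-Ab1 and Cd74 were not among them. These letters were chosen after the sequences were seen, the cores do not overlap each other, and a match is a description of the letters only. Set beside the 4 stretches, log2 fold changes were -3.79 ± 0.42 for H2-Eb1, -3.78 ± 0.43 for H2-Aa, -3.58 ± 0.61 for H2-DMb1 and -1.85 ± 0.20 for H2-Ob.

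Genes of dendritic cells fell with class II. Of 30 tested plasmacytoid dendritic cell genes 23 were lower, 19 of them with each library left out, and of 19 conventional dendritic cell genes 12 were lower, 9 of them likewise; none was higher in either list, whereas with the replicate block 2 plasmacytoid dendritic cell genes were. Siglech, a surface lectin of plasmacytoid dendritic cells, stood at 3367, 1412 and 3263 against 118, 26.9 and 55.1 (-5.45 ± 0.96, limma adjusted p = 0.0037). Tcf4 and Irf8, transcription factors of that lineage, fell less. Tcf4 went from 2262, 1187 and 2213 to 387, 397 and 397 (-2.20 ± 0.25, adjusted p = 2.9e-04), and Irf8 from 6550, 3540 and 6686 to 1477, 1228 and 1774 (-1.86 ± 0.32, adjusted p = 0.0031). Tlr7, a sensor of single-stranded RNA in that lineage, overlapped at 987, 779 and 1445 against 1353, 781 and 844 (-0.11, adjusted p = 0.94).
On the conventional side, Itgax, the integrin chain CD11c, fell from 7956, 5454 and 10593 to 607, 245 and 543 (-4.15 ± 0.54, adjusted p = 6.7e-04). Wdfy4, a gene needed for cross-presentation, fell from 15304, 10336 and 18007 to 1531, 607.9 and 1166 (-3.78 ± 0.47, adjusted p = 5.0e-04). Zbtb46, the transcription factor that marks the lineage, fell from 541, 528 and 1121 to 151, 122 and 116 (-2.40 ± 0.47, adjusted p = 0.0075), though not without YFP- replicate 3 (adjusted p = 0.052). Lectins and paired receptors of myeloid cells were lower in part. All 5 tested CD209 lectins were lower, from Cd209c (-5.10) to Cd209e (-3.49), the latter at 7.38, 8.15 and 17.3 in YFP- libraries and at 0 in all YFP+ libraries. Of 11 CD300 receptors 4 were lower, as were 5 of 23 Clec genes, 3 of 10 Lilr and Pir genes and 2 of 9 Siglecs, with no member higher in any of these families (1 Siglec was higher with the replicate block). Most members of these 4 families were not called, and the lower calls that passed with each library left out numbered 1 of the CD300 receptors, 2 of the Clec genes, 0 of the Lilr and Pir genes and 1 of the Siglecs.

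The other myeloid lists were mixed. Of 28 monocyte and macrophage genes 5 were lower and 1 higher, with a median of 0.46 that lies on the other side of zero from the calls. Itgam, the integrin chain CD11b, fell from 1734, 1444 and 2845 to 213, 90.1 and 227 (-3.55 ± 0.34, limma adjusted p = 1.3e-04), and Cd68, a lysosomal protein of macrophages, from 1832, 1527 and 2986 to 385, 283 and 295 (-2.67 ± 0.45, adjusted p = 0.0027). Csf1r, the receptor on which macrophages depend, overlapped at 2003, 1373 and 2384 against 1647, 690 and 996 (-0.84 ± 1.12, adjusted p = 0.83). The summed level of that list overlapped too, at 46113 to 53277 in YFP- and 41462 to 51520 in YFP+ libraries.
Of 25 Toll-like receptors and adaptors 10 were lower and 2 higher. Tlr9, a sensor of unmethylated DNA, fell from 1662, 1140 and 2733 to 209, 207 and 179 (-3.12 ± 0.41, adjusted p = 6.7e-04), and Tlr5, the flagellin receptor, from 198, 77.1 and 282 to 10.1, 4.14 and 10.5 (-4.24 ± 0.70, adjusted p = 0.0025). Irak3, an inhibitor of this pathway, rose from 304, 263 and 301 to 1276, 607.9 and 778 (1.55 ± 0.25, adjusted p = 0.0021). Of 13 cathepsins 4 fell, namely Ctsh (-3.89), Ctsl (-1.80), Ctsz (-1.35) and Ctss (-0.79), and 2 rose, namely Ctsw (2.07) and Ctsd (0.51), with a median of -0.15; the call of Ctsd was lost in 4 of the 6 fits with a library left out, those without replicate 1 or 3 of either side (adjusted p up to 0.14). Gm2a, a lysosomal lipid-binding protein, was named for its high mean count. It fell from 22601, 18930 and 30440 to 11518, 7430 and 10299 (-1.29 ± 0.19, limma adjusted p = 0.0013).

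B cell genes were called in both directions, 1 granulocyte or mast cell gene was higher and no erythroid or platelet gene passed. Of 22 B cell genes 3 were higher and 3 lower. Ebf1, a transcription factor that commits cells to the B lineage, passed, with 2.46, 4.45 and 1.02 against 50.6, 10.4 and 28.5 (2.94 ± 0.57, limma adjusted p = 0.007). Ighv10-3, a heavy chain segment, was at 0 in all YFP- libraries and averaged 32.1 in YFP+ libraries, at least 10.5-fold higher. The summed level of the B cell list was nevertheless lower in YFP+ libraries, at 30389 to 38037 against 38656 to 44915. Cpa3, a protease of mast cells and basophils, was at 0 in all YFP- libraries and at 61.7, 40.4 and 79.8 in YFP+ libraries, at least 19.8-fold higher. S100a8, a granulocyte protein, stood at 0, 1.48 and 0 against 30.3, 7.25 and 48.5 (adjusted p = 0.10). Of 9 granulocyte and mast cell genes tested, Cpa3 passed, none was lower and the median was 1.75; at an unadjusted p no higher than 0.05, 4 were higher and none lower. Over the 14 genes of that list in the table the sum was 73.0 to 103 in YFP- and 153 to 424 in YFP+ libraries, without overlap. None of 10 erythroid and platelet genes passed by limma, edgeR or DESeq2 (1 was higher at an unadjusted p no higher than 0.05 and 1 with the replicate block). Alas2, which makes haem in erythroid cells, overlapped at 17.2, 10.4 and 0 against 56.6, 10.4 and 30.4. The part of cells other than CD4+ T cells in the differences of class II, dendritic, B cell and mast cell genes was not tested.

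**Figure D4:**
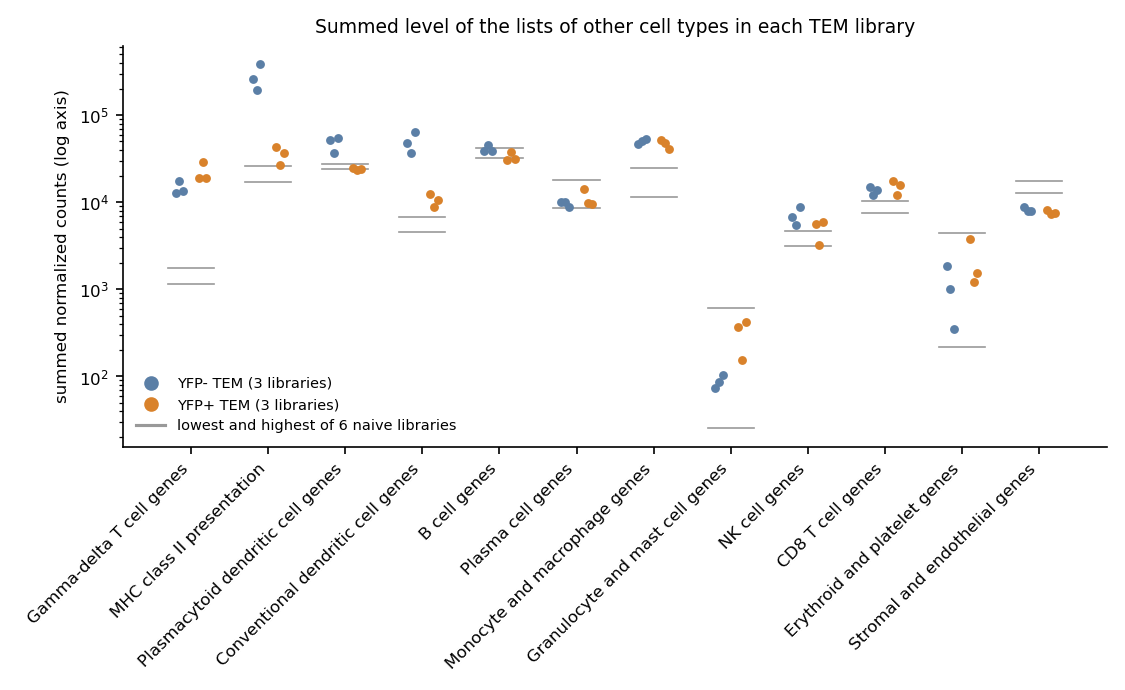
Summed normalized counts of the lists of other cell types in each TEM library (log axis), with grey lines at the lowest and highest of the 6 naive libraries. The MHC class II sum is 196949 to 390237 in YFP- and 26575 to 43576 in YFP+ libraries, and the 2 dendritic cell sums are also lower in YFP+. The monocyte, plasma cell, NK, CD8, erythroid and stromal sums overlap. A sum is led by its members with the highest counts and does not give the amount of a cell type. Cd8a (mean 371) and Cd8b1 (mean 751) are a small part of the CD8 sum in YFP- libraries (12016 to 14845), and both fell. The stromal sum is highest in naive libraries (12941 to 17474).

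T helper lineage genes divided unevenly. Of 17 T helper 1 genes 4 were higher and none lower, with a median of 0.50; with the replicate block 7 were higher and 1 lower. Il12rb2, the signalling chain of the IL-12 receptor, rose from 639, 502 and 841 to 4005, 1691 and 2912 (2.06 ± 0.40, limma adjusted p = 0.0069). Tbx21, which encodes T-bet, stood at 2357, 2692 and 2207 against 3890, 3418 and 4363 (0.68 ± 0.19, adjusted p = 0.048), and its call was lost whichever library was left out (adjusted p up to 0.21). Ccl5, a chemokine of effector cells, did not pass at 1972, 2161 and 1086 against 5835, 2759 and 4087 (1.28 ± 0.64, adjusted p = 0.35).
Of 17 T helper 17 genes 2 were higher. Aqp3, a water and glycerol channel, rose from 256, 168 and 256 to 678, 504 and 646 (1.44 ± 0.20, adjusted p = 0.001). Il23r, the IL-23 receptor, stood at 99.2, 64.5 and 117 against 387, 200 and 362 (1.73 ± 0.41, adjusted p = 0.023), and was lost when any library other than YFP+ replicate 2 was left out (adjusted p up to 0.12). None of 14 T helper 2 genes, 17 follicular helper genes or 19 TGF-beta pathway genes passed by limma in either direction, with medians of 0.10, -0.13 and 0.07. At an unadjusted p no higher than 0.05 there were 2, 0 and 4 such genes, edgeR called 0, 0 and 1, and DESeq2 called 1, 0 and 3. With the replicate block, 4 TGF-beta pathway genes were higher and 1 lower. Of 23 cytokine genes tested, Csf2 was the one that passed, and the median of that list was 0.00; with the replicate block 2 passed.

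Regulatory T cell genes were lower in 3 of 22 members and higher in 1, with a median of -0.44; with the replicate block 7 were lower and 2 higher. Foxp3, the lineage factor, stood at 19208, 11161 and 17909 in YFP- and at 9695, 6198 and 10484 in YFP+ cells (-0.87 ± 0.24, limma adjusted p = 0.045). The call was lost without replicates 1 or 3 of the YFP- side or replicates 1 or 2 of the YFP+ side (adjusted p up to 0.19). Swap70, a signalling protein of that list, fell from 2470, 1599 and 2712 to 1088, 799 and 1022 (-1.20 ± 0.20, adjusted p = 0.003) and passed in all 6 fits. Ikzf2, the transcription factor Helios, overlapped at 16309, 16431 and 15929 against 9352, 17241 and 10822 (-0.43 ± 0.20, adjusted p = 0.30). Socs2, an inhibitor of cytokine signalling also on this list, rose from 908, 905 and 840 to 1879, 1544 and 2160 (1.06 ± 0.22, adjusted p = 0.0094), though not without YFP- replicate 3 or YFP+ replicate 3 (adjusted p up to 0.058).

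Genes of homing, survival and quiescence moved toward YFP+ cells in part. Cxcr6, a chemokine receptor of liver-homing and resident T cells, stood at 1258, 1159 and 1255 against 12574, 6095 and 14100 (3.07 ± 0.35, limma adjusted p = 3.1e-04). Its ligand gene Cxcl16, which dendritic cells and macrophages make, fell from 334, 217 and 346 to 46.5, 29.0 and 50.4 (-2.81 ± 0.53, adjusted p = 0.0052). Xcl1, a chemokine that draws cross-presenting dendritic cells, rose from 57.4, 90.4 and 66.2 to 575, 370 and 759 (2.94 ± 0.47, adjusted p = 0.0021).
Cxcr6 and Cxcl16, receptor and ligand, thus changed in opposite directions. Itga1, a collagen receptor chain of resident cells, stood at 117, 84.5 and 69.3 against 1924, 990 and 2345 (4.21 ± 0.98, adjusted p = 0.02), but passed in 1 of the 6 fits with a library left out, the one without YFP+ replicate 2 (adjusted p up to 0.087). Itgb3, the beta chain of the vitronectin receptor, passed in all, with 3854, 2955 and 3816 against 11994, 6877 and 10450 (1.44 ± 0.18, adjusted p = 5.0e-04). Ccr2, a receptor for inflammatory chemokines, stood at 1955, 1747 and 1804 against 7276, 4476 and 7710 (1.78 ± 0.49, adjusted p = 0.048), a call lost whichever library was left out (adjusted p up to 0.17).
Il7r, the receptor of the survival cytokine IL-7, rose from 42834, 36099 and 36195 to 77244, 56981 and 72884 (0.84 ± 0.13, adjusted p = 0.0017). Bcl2, which blocks apoptosis, rose from 4797, 5139 and 4473 to 9779, 10283 and 12290 (1.16 ± 0.10, adjusted p = 9.6e-05). Of 16 BCL2 family genes 3 were higher and 3 lower, so the family as a whole did not move one way. Satb1, a chromatin organiser of thymocytes and resting T cells, rose from 3806, 2342 and 3754 to 17918, 6887 and 11945 (1.82 ± 0.29, adjusted p = 0.0018). Txk, a Tec family kinase, rose from 932, 847 and 951 to 3096, 2150 and 3646 (1.67 ± 0.18, adjusted p = 2.6e-04).

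Inhibitory receptors did not move as a group. Of 18 co-inhibitory receptors 2 were higher and 3 lower, and all 5 passed with each library left out. Havcr2, the receptor TIM-3, fell from 3254, 1814 and 2613 to 437, 241 and 201 (-3.17 ± 0.62, limma adjusted p = 0.0072). Lair1, a collagen receptor, fell from 1590, 1085 and 1859 to 358, 222 and 344 (-2.29 ± 0.21, adjusted p = 1.1e-04), and Cd244a, a receptor for CD48, from 1097, 867 and 1441 to 84.9, 40.4 and 108 (-3.93 ± 0.73, adjusted p = 0.0049). Lair1 is also on the plasmacytoid dendritic cell list and Cd244a on the NK cell list. Lag3, an inhibitory receptor that binds class II, overlapped at 6684, 14794 and 4367 against 4808, 17953 and 2849 (-0.27 ± 0.85, adjusted p = 0.95), with replicate 2 far above the others on both sides.

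Cell cycle genes were lower in 9 of 33 members and higher in none, with a median of -0.73. Stmn1, a microtubule regulator of dividing cells, fell from 2550, 3195 and 3484 to 1706, 1651 and 1803 (-0.83, limma adjusted p = 7.5e-04), and was the one member of the 9 that passed in all 6 fits with a library left out. Top2a, the topoisomerase of replicating chromosomes, fell from 8330, 9111 and 11897 to 5258, 5077 and 6462 (-0.80, adjusted p = 0.011). Mki67, the proliferation antigen, did not pass, although its groups did not overlap at 11643, 11483 and 17284 against 7785, 7145 and 10322 (-0.67 ± 0.22, adjusted p = 0.10). With the replicate block 18 of the 33 were lower.
None of 31 oxidative phosphorylation genes, 121 ribosomal protein genes, 39 proteasome subunits or 21 V-ATPase subunits passed by limma, with medians of -0.03, -0.02, -0.04 and -0.08. At an unadjusted p no higher than 0.05 there were 0, 6, 2 and 1 such genes, edgeR called none, DESeq2 called 2 ribosomal protein genes, and limma with the replicate block called 1 ribosomal protein gene and 1 V-ATPase subunit, both higher. Of 22 glycolysis genes 2 were lower and of 26 sterol and fatty acid synthesis genes 1 was higher. Each of these 3 was lost in at least 4 of the 6 fits with a library left out.

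Large changes were also found outside the immune lists. Cntn1, an adhesion molecule best known from neurons, stood at 3.28, 1.48 and 3.06 in YFP- and at 317, 143 and 256 in YFP+ cells (6.02 ± 0.52, limma adjusted p = 9.4e-05). Fam184b had at most 2 reads in a YFP- library and stood at 137, 89.1 and 154 in YFP+ cells, a ratio of 113 with an interval of 43.9 to 418 for counting error only. Its relative Fam184a also rose, from 8.20, 1.48 and 4.07 to 107, 87.0 and 191 (4.65 ± 0.59, adjusted p = 5.2e-04).
Of 42 potassium channel genes 5 were higher and none lower, 3 of them in every fit with a library left out. Kcnk1, a leak channel, rose from 4.92, 0.741 and 3.06 to 184, 77.7 and 135 (5.18 ± 0.56, adjusted p = 2.3e-04), and Kcnq5, a voltage-gated channel, from a mean of 1040.4 to 2663 (1.34, adjusted p = 0.0037). Of 20 phosphodiesterases, which break down cyclic nucleotides, 4 were higher and none lower (6 and 1 with the replicate block). Pde3b rose most, from a mean of 2828 to 11253 (1.95, adjusted p = 2.4e-04), followed by Pde11a (1.08), Pde7a (0.74) and Pde2a (0.59).
Transporters were called in both directions. Of 249 solute carriers 9 were higher and 21 lower, beside 2.30% higher and 4.67% lower over all genes tested. Their median was -0.07. Slc27a6, a fatty acid transporter, stood at 36.9, 43.7 and 29.5 against 1747, 807 and 1709 (5.17 ± 0.45, adjusted p = 9.4e-05). Its relative Slc27a2 fell by 4.15. Aqp9, a glycerol channel, stood at 52.5, 35.6 and 54.0 against 1782, 787 and 1916 (4.87 ± 0.40, adjusted p = 9.2e-05). The thrombin receptor gene F2r rose from 1554, 1884 and 1423 to 7952, 4634 and 7273 (2.00 ± 0.18, adjusted p = 9.4e-05).
Among the genes that fell most were Mapk13, a p38 kinase, from 208, 179 and 260 to 5.06, 5.18 and 10.5 (-4.83 ± 0.61, adjusted p = 5.3e-04). Pik3r6, a regulatory subunit of PI3K gamma, fell from 112, 60.03 and 132 to 0, 1.04 and 4.75 (-5.42 ± 0.91, adjusted p = 0.0027). Sucnr1, the succinate receptor, fell from 68.9, 57.8 and 179 to 0, 1.04 and 12.4 (-4.91 ± 0.95, adjusted p = 0.0064). Of 14 regulators of G protein signalling 4 were lower and none higher, and Rgs18 fell most among those with a mean over 50, from 446 to 34.8 (-3.90, adjusted p = 0.0038). Of 36 metalloprotease and ADAM genes, Mmp9, which degrades basement membrane, stood at 335, 179 and 392 against 5501, 2304 and 8277 (4.04 ± 0.89, adjusted p = 0.015), but the call was lost without YFP- replicate 2, YFP+ replicate 1 or YFP+ replicate 3 (adjusted p up to 0.074). Mmp12 (-4.24), Adam11 (-4.36), Adam22 (-3.88) and Adam23 (-4.11) fell. The families in this and the dendritic cell paragraphs were drawn from gene symbols after the values had been seen.

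**Figure D5:**
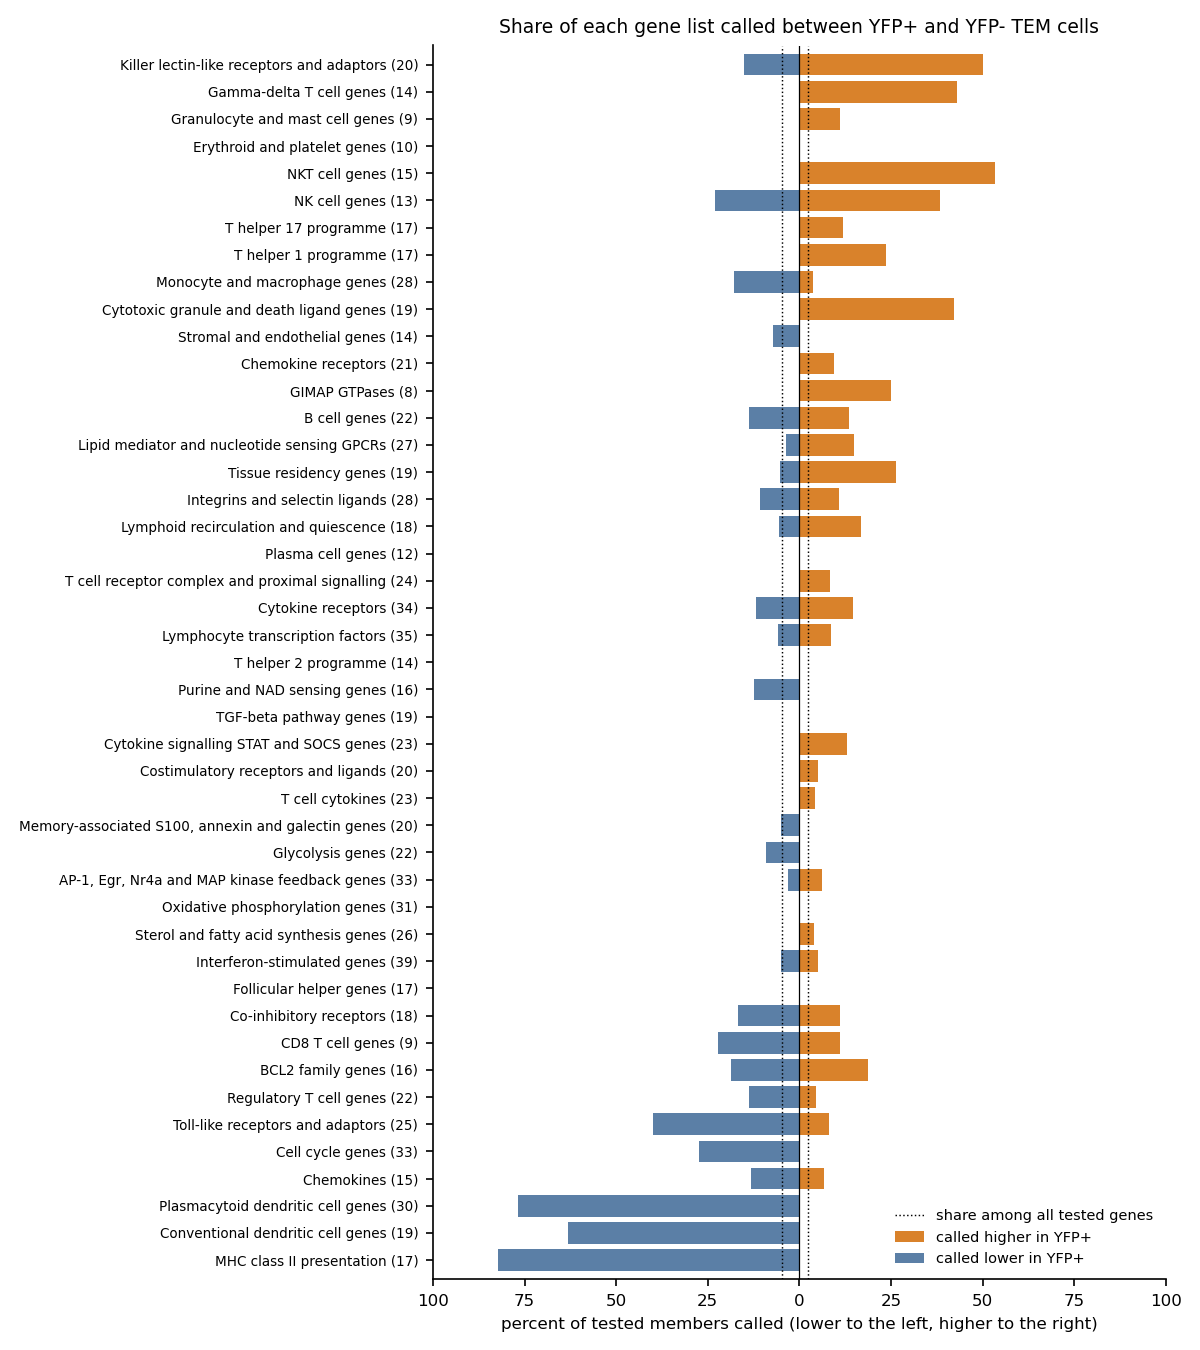
Percent of tested members of each of the 45 gene lists called lower (blue, to the left) or higher (orange, to the right) in YFP+ TEM cells, with the number tested in brackets and lists ordered by median log2 fold change; dotted lines mark the shares among all tested genes (4.67% lower, 2.30% higher). MHC class II (14 of 17 lower) and NKT cell genes (8 of 15 higher, Trav11 and Trav11d both counted) have the longest bars on their sides. In 6 lists no member was called.

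In the naive libraries, 172 of the 728 lower genes (23.6%) averaged under 5 normalized counts, against 70 of the 359 higher genes (19.5%) and 1655 of all 15587 tested (10.6%).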

How the data were processed

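Spleen CD4+ T cells were sorted by the authors, total RNA (200 ng) was made into stranded libraries, and reads were mapped to mm10 with DRAGEN, counted with Rsubread and normalized with DESeq2; versions, annotation and strand setting are not given in the sources used here. The deposited file holds normalized counts (signal: reads divided by a size factor per library), for 17523 genes with at least 10 reads summed over the 12 libraries; dividing by the smallest value of each column gave whole reads for 100% of values (tolerance 1e-06). Columns were matched to samples by name. Gene IDs were matched to RefSeq, which gave a symbol for 16749.

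The 15587 genes that reached 5 normalized counts in 3 or more libraries were tested on log2(normalized count + 1) with limma 3.58.1 (R 4.3.3), over all 12 libraries with 1 mean per group and a variance trend (8 residual degrees of freedom); log2 fold changes understate the change of low genes. edgeR 4.0.16 and DESeq2 1.42.0 were run on the recovered reads as alternatives, the scripts having been tested on simulated data. Same-numbered YFP+ and YFP- libraries deviated together (Pearson r 0.180, 0.338 and 0.356 in TEM, 0.306, 0.491 and 0.360 in naive cells, across genes). The numbers were therefore taken to pair the samples, although the labels do not say so. The main fit left this pairing out, and the replicate block was run as an alternative. That block was shared by TEM and naive libraries of the same number. Whether TEM and naive libraries of the same number deviate together was not checked. Genes were named by rule: the anchor of each of 45 lists, up to 4 called members per list with the largest change and a mean of at least 50, the 15 largest increases and decreases, the 10 most abundant genes with a log2 fold change of 1 or more, and the sort and reporter genes. Other genes in the text were chosen after their values were seen. The members and the lists were chosen with earlier results of these data known. Depth (41438995 to 57822269 reads) limits genes with few reads, for which a floor of 3 reads or a counting interval is given. The results of some genes are not reported here.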

Additional observations from a re-analysis of the deposited data

Results flagged for a closer look

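The YFP effect in TEM cells was set against the YFP effect in naive CD4+ cells (limma interaction term, Benjamini-Hochberg adjusted over all 15587 genes) for the anchor gene of each of the 45 lists, and 12 anchors differed. The anchors were chosen with earlier results of these data known. The share of all tested genes that differed is not given here, so the count of 12 cannot be called high or low. The TEM effect exceeded the naive effect for Zbtb16 by 3.98 on the log2 scale (adjusted p = 0.035), for Csf2 by 4.40 (adjusted p = 0.025), for Cxcr6 by 2.82 (adjusted p = 0.0092), for Socs2 by 1.69 (adjusted p = 0.010), for Il2rb by 1.40 (adjusted p = 0.0059), for Klrd1 by 1.05 (adjusted p = 0.048) and for Bcl2 by 0.80 (adjusted p = 0.011).

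For the other 5 the difference was negative. It was -3.80 for Cd74 (adjusted p = 0.0049), -6.46 for Siglech (adjusted p = 0.021), -3.22 for Zbtb46 (adjusted p = 0.020), -5.86 for Cdh5, an adhesion molecule of endothelial cells (adjusted p = 0.029), and -1.43 for Mki67 (adjusted p = 0.024). Of these, Mki67 did not pass within TEM cells, and Cdh5, Socs2 and Zbtb46 passed but lost that call when certain single libraries were left out. Zbtb16, Csf2 and Siglech averaged at most 5.58 normalized counts in either naive group, close to the floor of 3 reads. Cdh5 averaged 92.7 ± 125 (SD, n = 3) in naive YFP+ and 13.5 ± 10.4 in naive YFP- cells, so its naive effect rests on libraries that differ widely.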

How the results depend on the processing

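Of the 135 named genes called between YFP+ and YFP- TEM cells, 78 kept the call in every alternative, 57 lost it in at least 1 and none changed sign; of the 31 not called, 12 passed in at least 1. Leaving out 1 TEM library gave 202 to 420 higher and 414 to 666 lower genes; the call counts moved by over 1.5 times without YFP- replicate 3 (224 higher, 414 lower), YFP+ replicate 1 (212 higher) and YFP+ replicate 3 (202 higher).

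With the replicate block (the pairing by number), limma called 814 higher and 1055 lower genes, edgeR 1093 and 1005, and DESeq2 1103 and 1309; limma with the block ended no named call and added 5 (Cd40lg, Il18r1, Nr4a1, P2rx7 and Smad7). DESeq2 without the block called 569 higher and quantile normalization 686. At a log2 fold change of 1 or more 203 higher genes remained, and of 2 or more 113 higher and 430 lower. The alternatives with a smaller effect on the counts were other pseudocounts, filters, TMM factors, the 6 TEM libraries alone, no variance trend, edgeR and leaving out receptor segments.

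Signs that turned belonged to genes not called: with quantile normalization Isg15 (0.042) and Trdc (0.011), with TMM Itgb1 (0.018) and Ldha (0.024), with edgeR Itgb1 (0.017), Lag3 (0.022) and Ldha (0.028), and with edgeR and the replicate block Itgb1 (0.021) and Ldha (0.024). The difference between TEM and naive effects turned for Ikzf2 (-0.0664) and Trdc (0.19) with quantile normalization and for Sdc1 (-0.92) with a pseudocount of 0.1. With 1 library left out, log2 fold changes ran from -0.065 to 0.57 for Bhlhe40, -0.15 to 0.0047 for Cd4, -0.013 to 0.29 for Gzmb, -0.091 to 0.17 for Hmgcs1, -0.27 to 0.011 for Isg15, -0.11 to 0.061 for Itgb1, -1.03 to 0.30 for Lag3, -0.0603 to 0.052 for Ldha and -0.35 to 0.13 for Tlr7. The cause of these changes was not tested.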

Other observations

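Trdv1, a delta V segment, stood at 1421 normalized counts in YFP+ TEM replicate 2 and between 57.4 and 86.6 in the other 5 TEM libraries (57.4, 81.5 and 86.6 in YFP-, 83.9 and 73.2 in YFP+ replicates 1 and 3), so 1 library set the group mean (log2 fold change 1.47, limma adjusted p = 0.43). It was chosen after its values were seen.

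GIMAP GTPases, which are linked to lymphocyte survival, were higher in 2 of 8 members and lower in none, with a median of 0.28. The 2 were Gimap4 (0.42, limma adjusted p = 0.033) and Gimap9 (0.37, adjusted p = 0.021), and neither passed in every fit with a library left out; with the replicate block 5 of 8 were higher. Of 39 interferon-stimulated genes 2 were higher and 2 lower, beside 2.30% higher and 4.67% lower over all genes tested. Bst2, the surface protein tetherin, fell by 0.75 ± 0.10 (adjusted p = 9.4e-04) and is also on the plasmacytoid dendritic cell list, while Isg15, a ubiquitin-like modifier, overlapped at 406, 601 and 450 against 438, 464 and 394.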
